A study of Mus musculus with 6 samples.

Results

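The ErbB receptor genes and the genes of their EGF-family ligands were followed in TuBo cells with and without p140Cap. The set held 10 genes of the 21960 with a row in the deposited counts, taken by symbol: the receptors Egfr, Erbb2, Erbb3 and Erbb4, and the ligands Tgfa, Hbegf, Areg, Btc, Ereg and Nrg1. TuBo is a mammary carcinoma line from a BALB/c-MMTV-NeuT mouse, whose tumors are driven by an activated rat neu (ErbB2) transgene under the MMTV promoter. RNA-Seq covered 3 mock libraries, labelled wt, and 3 libraries of cells that overexpress p140Cap from a pBabe-puro retrovirus, so that the rat transgene is shared by both groups. The p140Cap cells were a pool of clones grown from single cells after puromycin selection, whereas for mock cells no cloning step is stated. The labels call the samples mice in one place and cell lines in another, and they were read as the cultured line. Nothing in the labels says how far apart the replicate cultures were grown, so p-values measure the spread between these libraries, which may be technical.

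ErbB receptors are tyrosine kinases that signal as dimers. EGF-family ligands open the extracellular part of a receptor for dimerization. Epidermal growth factor receptor (Egfr) binds TGF-alpha, amphiregulin, HB-EGF, betacellulin and epiregulin, while ErbB3 and ErbB4 bind neuregulins. ErbB2 has no ligand of its own and ErbB3 has little kinase activity, and their dimer is a strong activator of PI3K signaling and a known driver of HER2+ BC. Most ligands are made as membrane proteins and are released by ADAM proteases.

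The mouse genes have rows in the counts, but rat neu has none. Reads of the rat transcript that align to mouse Erbb2 would be counted there, and the 2 sources cannot be told apart. The Erbb2 values below are therefore values of a row and not of the endogenous gene alone.

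Libraries held between 13770385 and 75506562 reads on genes, and every mock library was deeper than every p140Cap library. After a filter on low counts, the quasi-likelihood test of edgeR was run on 11800 genes, and 71.1% of them passed an adjusted p of 0.05 (35.2% higher and 35.9% lower in p140Cap cells). A call alone thus says little in these data, and 9.97% of genes passed with a change of at least 1 log2 unit (4.93% higher and 5.04% lower). Srcin1, the gene of p140Cap, was at 14.98 ± 1.96 CPM in mock and 2343 ± 153 CPM in p140Cap cells (SD, n = 3 each), in the direction of the labels (CPM, reads scaled to a common library size). The epithelial genes Epcam, Cdh1, Krt8 and Krt18 were high in both groups, while Krt19 was below 0.4 CPM in every library. Summed over all 6 epithelial markers, libraries lay between 4877 and 5179 CPM in mock and between 5704 and 5812 CPM in p140Cap cells. Epcam (0.42), Krt18 (0.24) and Cdh1 (0.11) were called higher, Cldn7 (-0.41) was called lower and Krt8 was not called (log2 fold changes). Of the markers of other cells, Ptprc, Cd3e, Adgre1, Col1a2, Col3a1, Thy1, Dcn, Lum and Kdr had 0 reads in every library. Summed over all 8 fibroblast markers, libraries lay between 9.97 and 10.5 CPM in mock and between 11.3 and 14.1 CPM in p140Cap cells. Most of that sum came from Pdgfra, at a mean of 7.18 CPM in mock and 7.67 CPM in p140Cap cells, which was not called. The leukocyte sum lay between 2.08 and 2.34 CPM in mock and 3.23 and 4.09 CPM in p140Cap cells and came almost wholly from Cd68. The endothelial sum lay between 0.270 and 0.528 CPM in mock and between 0.613 and 0.923 CPM in p140Cap cells. Of these low markers, Col1a1 (0.80), Cd68 (0.83) and Pecam1 (1.25) were called higher (log2 fold changes), and the part of these marker levels in the results below was not tested.

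Among the members, transcripts of Erbb3, Hbegf and Btc were higher in p140Cap cells, and those of Areg, Nrg1 and Tgfa were lower. Erbb2 and Egfr were not called, and Erbb4 and Ereg had no reads at all. No member changed by 1 log2 unit, against 9.97% of all genes tested. By the fit to all 6 libraries, Nrg1 fell by 28.4% and Hbegf rose by 29.8%, next to Areg, which fell by 27.0%, and Btc, which rose by 28.6%. In all, 6 of 8 members tested were called (3 higher and 3 lower), against 71.1% of all genes tested, a share near the background. All 8 were apart between groups in every library, as were 73.4% of all genes tested. In bulk RNA, a changed level per cell and a changed number of cells that express a gene cannot be told apart.

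**Figure D1:**
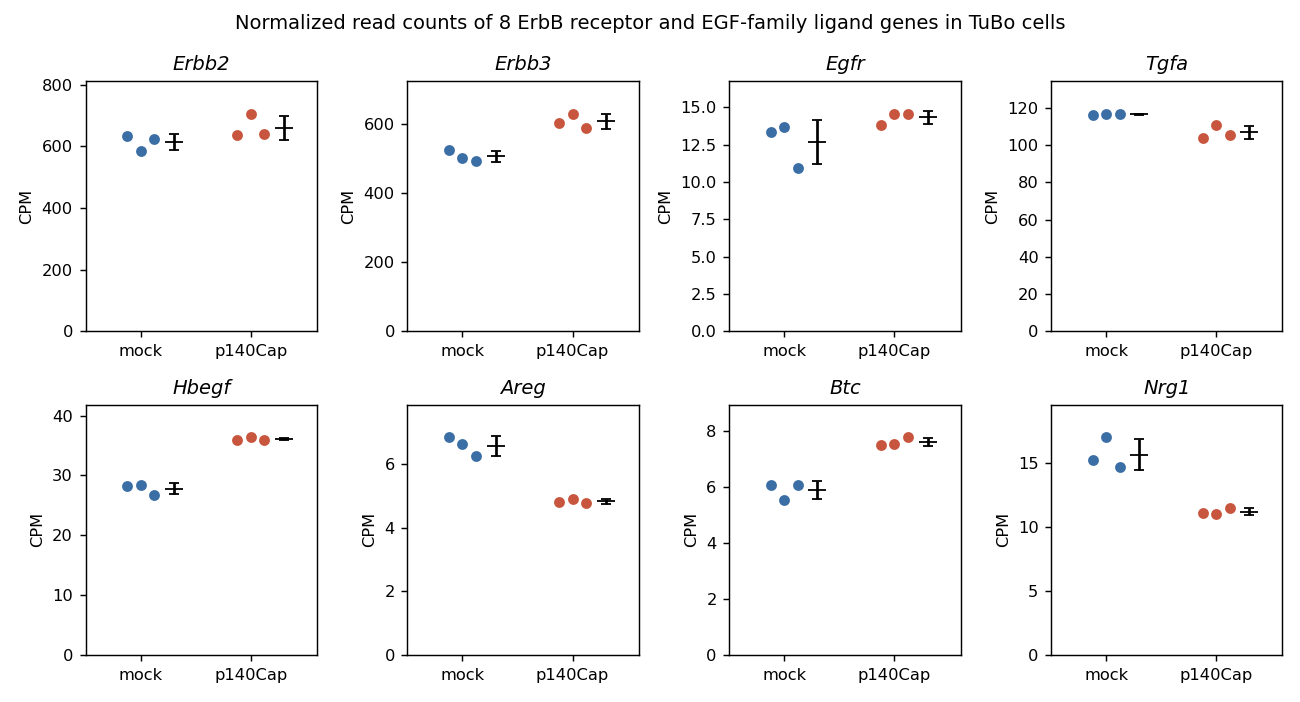
Normalized read counts (CPM, linear axes from 0) of the 8 members with reads, in each of 3 mock (blue) and 3 p140Cap (red) libraries, with black bars for mean ± SD. Hbegf, Btc and Erbb3 sit higher in p140Cap cells, Areg, Nrg1 and Tgfa lower, and the groups almost touch for Erbb2 (highest mock library 635, lowest p140Cap library 637).

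Erbb2 (ENSMUSG00000062312; chr11:98412484-98437716 of GRCm38.p6, plus strand) was covered by 48578, 23285 and 20829 reads in mock cells and by 9663, 10374 and 8716 in p140Cap cells. Normalized to library size, these were 635, 585 and 625 CPM in mock and 637, 707 and 640 CPM in p140Cap cells. The groups were separated by the gap between 635 and 637 CPM only, and a single p140Cap library, replicate 2, stood above the others. The log2 fold change was 0.10 (95% interval -0.0086 to 0.22, edgeR adjusted p = 0.0906). A rise above 0.22 log2 units and a fall of more than 0.0086 were thus outside the interval. Without p140Cap replicate 2 the log2 fold change was 0.052, and without mock replicate 2 it was 0.068. Annotated Mien1 overlaps Erbb2 on the other strand, and use of the strand in counting is not given.

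Erbb3 (ENSMUSG00000018166; chr10:128567523-128589635, minus strand), the dimer partner of ErbB2 that binds neuregulins, was the one receptor that passed the test. It was at 525, 503 and 493 CPM in mock and at 605, 631 and 589 CPM in p140Cap cells. Every p140Cap library lay above every mock library. The fitted difference was 0.26 log2 units (SE 0.048, edgeR adjusted p = 0.000123), an increase of 20.0%. Within a library, the log2 ratio of Erbb3 to Erbb2 reads was -0.27, -0.22 and -0.34 in mock and -0.073, -0.16 and -0.12 in p140Cap cells. The ratio did not overlap between groups, and its exact permutation p was 0.1, the smallest that 3 against 3 libraries can give.

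Egfr (ENSMUSG00000020122; chr11:16752203-16913907, plus strand), the receptor of most ligands of the set, had few reads beside the Erbb2 row, at 13.4, 13.7 and 10.96 CPM in mock and 13.8, 14.6 and 14.5 CPM in p140Cap cells. Mock replicate 3 was the lowest, and the p140Cap libraries lay just above the highest mock library. The log2 fold change was 0.17 (95% interval -0.029 to 0.36, edgeR adjusted p = 0.118), and it was 0.080 without mock replicate 3. Erbb4 (ENSMUSG00000062209), the other neuregulin receptor, had 0 reads in all 6 libraries. A count of 0 allows up to 3 reads, or 0.020 CPM over the mock libraries and 0.069 CPM over the p140Cap libraries, counting error only.

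**Figure D2:**
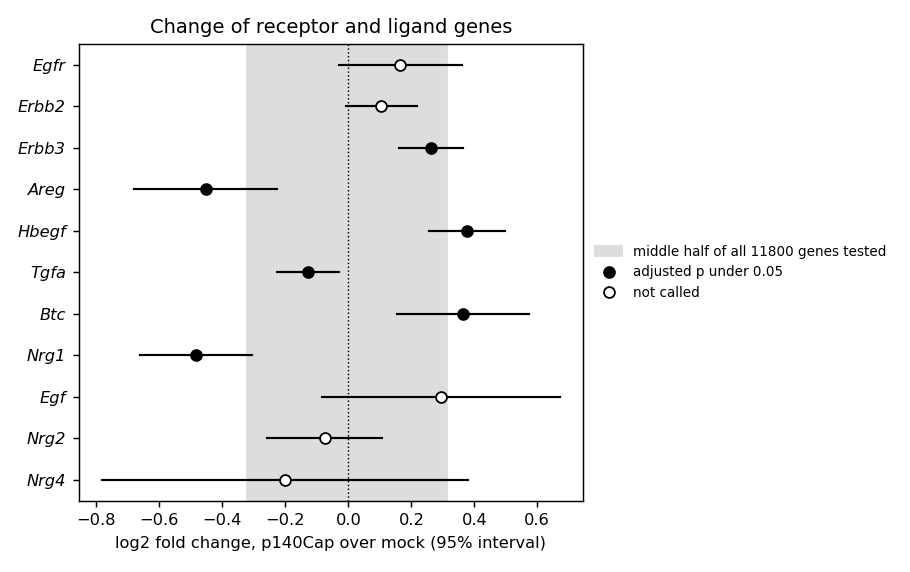
Log2 fold change of p140Cap over mock cells for the 8 members and 3 other ligand genes that were tested, with 95% intervals, and the range between the quartiles of all 11800 genes tested (-0.32 to 0.31) in grey. Filled points passed an adjusted p of 0.05. Areg and Nrg1 lie left of the grey band and Hbegf and Btc right of it, while the receptors lie within it.

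Of the ligands of Egfr, Tgfa (ENSMUSG00000029999; chr6:86195038-86275744, plus strand) had the most reads. TGF-alpha is the classical autocrine ligand of carcinoma cells. It was at 116, 117 and 117 CPM in mock and at 104, 111 and 106 CPM in p140Cap cells. The groups did not overlap, though the difference was small. The fitted difference was -0.13 log2 units (SE 0.046, edgeR adjusted p = 0.0209). This call was lost without mock replicate 1 (adjusted p = 0.0502), p140Cap replicate 1 (adjusted p = 0.0996) or p140Cap replicate 3 (adjusted p = 0.0673), while the direction was kept.

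Hbegf (ENSMUSG00000024486; chr18:36504927-36515805, minus strand) encodes HB-EGF, which binds both Egfr and ErbB4 and is an early target of growth factor signaling. It was at 28.3, 28.3 and 26.8 CPM in mock and at 35.99, 36.37 and 35.99 CPM in p140Cap cells. The gap between the groups was far larger than the spread within them. The fitted difference was 0.38 log2 units (SE 0.057, edgeR adjusted p = 1.88e-05). In this fit Hbegf had the smallest p of the members, at position 3781 of 11800 genes. By adjusted p, Erbb3 came first of the members under DESeq2, and Nrg1 with no filter on low counts.

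Areg and Btc are neighbours in the ligand cluster on chromosome 5, which also holds Ereg and Epgn, and they changed in opposite directions. Areg (ENSMUSG00000029378; chr5:91139599-91148432, plus strand) encodes amphiregulin, a ligand of mammary duct growth. It had 524, 264 and 208 reads in mock and 73, 72 and 65 in p140Cap cells, or 6.85, 6.64 and 6.25 CPM against 4.81, 4.90 and 4.77 CPM. All p140Cap libraries were lower, and the fitted difference was -0.45 log2 units (SE 0.11, edgeR adjusted p = 0.00126). Btc (ENSMUSG00000082361; chr5:91357261-91402994, minus strand) encodes betacellulin, and lies 209 kb beyond the end of Areg. It had 466, 220 and 203 reads in mock and 114, 111 and 106 in p140Cap cells, or 6.09, 5.53 and 6.10 CPM against 7.51, 7.56 and 7.79 CPM. All p140Cap libraries were higher, and the fitted difference was 0.36 log2 units (SE 0.099, edgeR adjusted p = 0.00365).

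The same reads, written as a ratio of both genes within a library, restate these changes and are no further test of them. The log2 ratio of Btc to Areg reads was -0.17, -0.26 and -0.035 in mock and 0.64, 0.62 and 0.71 in p140Cap cells. Areg thus had more reads than Btc in each mock library and fewer in each p140Cap library. Ereg (ENSMUSG00000029377), which lies 46 kb from Areg and encodes epiregulin, had 0 reads in every library. Epgn, the epigen gene of the same cluster, had 19, 6 and 12 reads in mock cells, against 4, 0 and 1 in p140Cap cells, too few for the test. The ratio of its pooled levels, 0.465 with a 95% exact interval of 0.143 to 1.19 (counting error only), rests on the 4 reads of p140Cap replicate 1.

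The start regions of Areg and Btc are shown because the data separate these neighbouring genes. RefSeq start regions of GRCm38.p6 were matched for 6 of 10 members, each from 250 bases before to 50 bases after the start. Capitals mark the motifs found in them, a cAMP response element (TGACGTCA) and a TATA box (TATAAA).
Areg (chr5:91139349-91139648, plus strand): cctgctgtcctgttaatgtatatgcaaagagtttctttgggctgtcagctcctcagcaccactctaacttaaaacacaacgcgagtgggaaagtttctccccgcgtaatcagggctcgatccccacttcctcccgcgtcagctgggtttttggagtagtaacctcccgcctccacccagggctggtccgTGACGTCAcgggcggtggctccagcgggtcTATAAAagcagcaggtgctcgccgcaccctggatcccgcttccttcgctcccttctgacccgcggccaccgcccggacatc
Btc (chr5:91402945-91403244, minus strand): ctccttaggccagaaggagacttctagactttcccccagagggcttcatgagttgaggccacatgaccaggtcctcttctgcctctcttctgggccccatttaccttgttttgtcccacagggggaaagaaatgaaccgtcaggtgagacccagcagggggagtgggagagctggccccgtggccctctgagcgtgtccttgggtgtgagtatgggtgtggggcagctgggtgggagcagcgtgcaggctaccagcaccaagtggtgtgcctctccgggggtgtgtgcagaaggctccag
The Areg region held the cAMP response element 61 bases and the TATA box 31 bases before the start. The former, searched on both strands, was in 1.79% of the 32851 RefSeq start regions and the latter, searched on the sense strand, in 8.32%. AP-1 (TGANTCA), EGR (GCGNGGGCG) and TCF/LEF (CTTTGAT) letters, searched on both strands, were in 7.81%, 5.55% and 3.73% of all regions and in neither of these. The regions of Tgfa, Egfr, Erbb2 and Erbb4 held none of the 5 motifs. These matches describe letters in a window and were not linked to binding or to the changes.

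Nrg1 (ENSMUSG00000062991; chr8:31807452-32891609, minus strand), whose neuregulin-1 binds ErbB3 and ErbB4, was lower in p140Cap cells. It was at 15.3, 17.0 and 14.7 CPM in mock and at 11.14, 11.03 and 11.53 CPM in p140Cap cells. The groups were well apart, although mock replicate 2 was higher than the other mock libraries. The fitted difference was -0.48 log2 units (SE 0.084, edgeR adjusted p = 7.6e-05). Nrg1 has many isoforms, and a second annotated gene of the same name overlaps it on the same strand, so its reads may be split. The receptor gene of neuregulin-1, Erbb3, changed in the other direction in the same libraries.

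None of the 3 other ligand genes tested was called by edgeR, nor by DESeq2 or limma-voom, and none had an unadjusted p under 0.05, where 71.1% of all genes tested were called. Nrg2, a second neuregulin with more reads than Nrg1, was at 19.3 ± 1.79 CPM in mock and 18.2 ± 1.75 CPM in p140Cap cells (SD, n = 3 each), with a 95% interval of its log2 fold change from -0.26 to 0.11. Egf was at 1.70 ± 0.161 and 2.11 ± 0.176 CPM (95% interval -0.084 to 0.67). Nrg4 stayed below 1 CPM in every library (95% interval -0.78 to 0.38), and Nrg3 had 0 reads.

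Levels of different genes were compared per length, as RPKM on the union of annotated exons. In mock cells the order was Erbb2 (114 ± 4.83 RPKM), Erbb3 (80.4 ± 2.61), Tgfa (17.1 ± 0.0387), Hbegf (5.44 ± 0.171), Areg (5.38 ± 0.250), Btc (1.30 ± 0.0712), Egfr (1.10 ± 0.128) and Nrg1 (0.941 ± 0.0720; SD, n = 3 libraries each). Neighbours in this order that overlapped between libraries were Hbegf and Areg, and Egfr and Nrg1. In p140Cap cells no neighbours overlapped, with Hbegf at 7.07 ± 0.0435 and Areg at 3.95 ± 0.0548 RPKM. The Erbb2 and Erbb3 rows were more than 60 times the level of Egfr in either group.

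The length used matters for genes with long or rare exons. On the canonical transcript, Hbegf was at 11.7 RPKM and Nrg1 at 2.28 RPKM in mock cells, so that Hbegf and Areg no longer overlapped and Nrg1 moved above Btc (2.03) and Egfr (1.24), while the first 5 places were unchanged in both groups. In p140Cap cells Btc (2.62 RPKM) was then above Nrg1 (1.63).

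**Figure D3:**
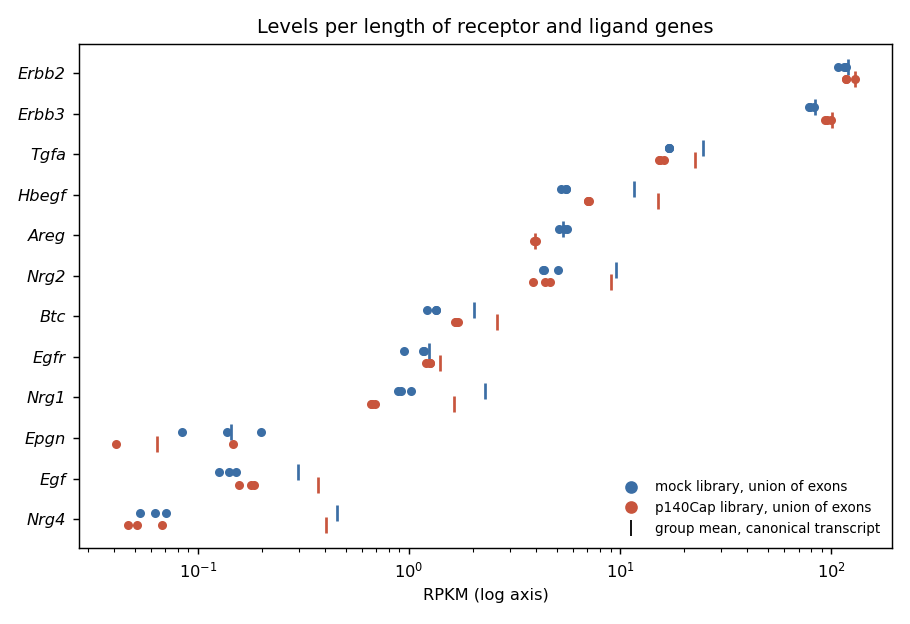
Levels per length (RPKM, log axis) of members and other ligand genes, with a point for each mock (blue) or p140Cap (red) library on the union of exons and a tick for the group mean on the canonical transcript. Erbb2 and Erbb3 stand above 78 RPKM and Tgfa leads the ligands at 15.2 to 17.1 RPKM. Genes with 0 reads, and the p140Cap library in which Epgn had none, are not drawn.

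The 4 expressed ligands of Egfr among the members were also summed. Tgfa, Hbegf, Areg and Btc together were at 29.2 ± 0.360 RPKM in mock and 28.3 ± 0.606 RPKM in p140Cap cells (SD, n = 3 each), and the groups overlapped (exact permutation p = 0.2). The shares of single ligands in the sum were apart. Hbegf was 18.6% ± 0.380 of it in mock and 24.9% ± 0.381 in p140Cap cells, Areg 18.4% ± 0.630 and 13.9% ± 0.157, and Tgfa 58.5% ± 0.841 and 55.2% ± 0.647. These shares did not overlap between groups, and they restate the changes of the single genes. On canonical lengths Hbegf was 26.6% of the sum in mock and 34.1% in p140Cap cells, and Areg 12.3% and 8.90%, so the near-equal shares of both in mock cells hold for the union of exons only. On those lengths the summed level was 43.9 and 44.4 RPKM, so the direction of the difference in the sum depends on the length used.

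The genes around the receptors were read from lists by role. Of 8 genes for ligand release, 4 were higher and 1 was lower in p140Cap cells, that is 62.5% called against 71.1% of all genes tested, with a median log2 fold change of 0.11. Adam17, the main sheddase of amphiregulin, TGF-alpha and HB-EGF, was at 155 ± 2.84 CPM in mock and 155 ± 2.89 CPM in p140Cap cells (95% interval of its log2 fold change -0.096 to 0.095). Rhbdf2, which encodes the iRhom2 cofactor of that protease, rose by 0.60 log2 units (SE 0.060, edgeR adjusted p = 1.52e-07), whereas that of Rhbdf1 (iRhom1) was -0.18 (SE 0.063, edgeR adjusted p = 0.0174). Adam10, the main sheddase of betacellulin, had a log2 fold change of 0.19 and Adam12 one of 0.69, and both were called.

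Of 13 tested genes listed for restraint of ErbB receptors, 4 were higher and 3 were lower. That is 53.8% called against 71.1% of all genes tested, and the median log2 fold change was 0.020. Whether each product restrains these receptors in TuBo cells was not tested. Errfi1, which encodes the Mig6 inhibitor of the kinase domain, rose from 75.02 ± 1.82 to 101 ± 4.41 CPM (SD, n = 3 each), a difference of 0.42 log2 units (edgeR adjusted p = 9.96e-07). Lrig2 rose by 0.63 log2 units and Lrig1 by 0.12 (edgeR adjusted p = 0.0346 for Lrig1). Socs4 fell by 0.49 log2 units and Ptpn12, a phosphatase of ErbB receptors, fell by 0.29. The ubiquitin ligase genes Cbl, Rnf41 and Cblb were not called, with log2 fold changes of 0.020, 0.088 and 0.19. Stub1, also a ubiquitin ligase gene, was lower (-0.21, edgeR adjusted p = 0.0043).

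Among 6 tested partners of ErbB2, 3 were higher and 2 were lower, that is 83.3% called against 71.1% of all genes tested. The chaperone genes Hsp90aa1 and Hsp90ab1, whose proteins stabilize ErbB2, were lower. Hsp90aa1 fell from 1090 ± 26.5 to 649 ± 52.6 CPM (SD, n = 3 each), a difference of -0.75 log2 units (edgeR adjusted p = 5.17e-09), and Hsp90ab1 had a log2 fold change of -0.44. Erbin, the ErbB2-binding scaffold, rose by 0.40 and Muc1 by 0.75 log2 units.

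Of 33 adaptor and effector genes, 18 were higher, 9 were lower and 6 were not called, that is 81.8% called against 71.1% of all genes tested, and the median log2 fold change was 0.12. The Ras genes Hras and Nras were lower, with log2 fold changes of -0.96 and -0.24. The docking protein genes Gab1 (0.69) and Gab2 (0.58), the ErbB2-binding adaptor gene Grb7 (0.63) and the Erk1 gene Mapk3 (0.78) were higher. Akt1 fell by 0.49 log2 units, while Akt2 had a log2 fold change of 0.11. Among these genes, Gab2, Nras, Akt1 and Akt2 were named after their values were seen.

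Transcripts that follow ERK activity were mostly higher. Of 15 genes tested, 11 were higher and none was lower at an adjusted p of 0.05 (edgeR), against 35.2% higher and 35.9% lower over all genes tested, and the median log2 fold change was 0.42 against -0.0015. Fos was at 7.44, 7.17 and 7.36 CPM in mock and at 21.9, 20.2 and 19.5 CPM in p140Cap cells, a difference of 1.49 log2 units (SE 0.078, edgeR adjusted p = 6.94e-11). Egr1, another immediate early gene, rose by 1.26 log2 units, and Ier3 rose by 0.90. The ERK phosphatase gene Dusp6, named after its values were seen, rose from 951 ± 7.47 to 1390 ± 23.9 CPM (SD, n = 3 each), a log2 fold change of 0.55. The 4 genes not called were Spry1, Spred1, Etv4 and Fosl1, with log2 fold changes of -0.029, -0.028, -0.037 and -0.17. DESeq2 called 10 genes of this list and limma-voom 11. The lowest count over all alternatives was 9, with no filter on low counts, without mock replicate 3 or without p140Cap replicate 2. No gene of the list was lower at an unadjusted p of 0.05 (edgeR). The list was written with earlier results of these data known, so its direction is no independent support for a change in ERK activity. It was not tested as a set, and transcripts do not measure the phosphorylation of ERK.

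**Figure D4:**
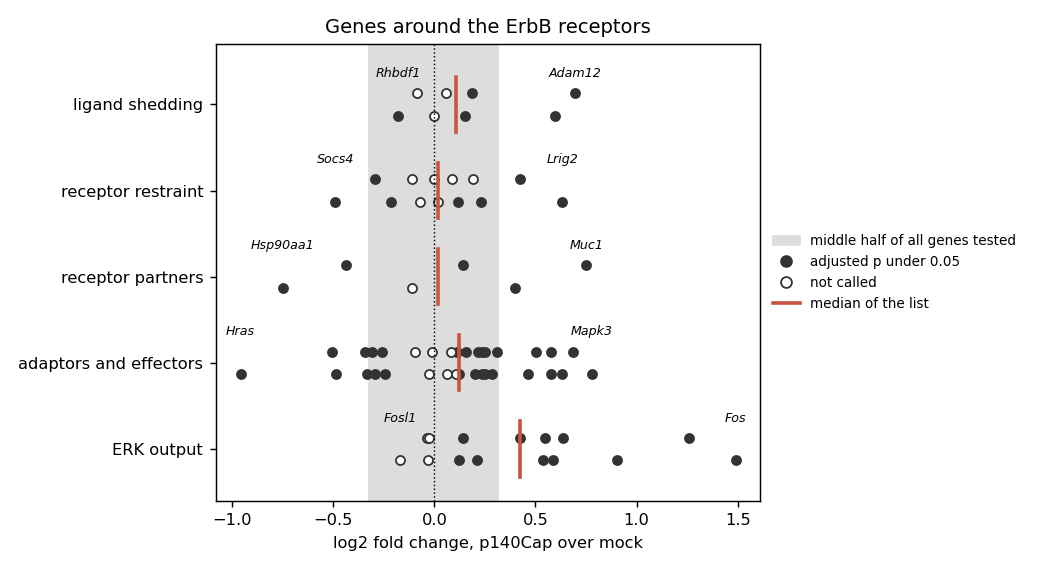
Log2 fold change of p140Cap over mock cells for each tested gene of 5 lists around the ErbB receptors, with the list medians in red and the range between the quartiles of all genes tested in grey. Filled points passed an adjusted p of 0.05, and the lowest and highest gene of each list are named. The ERK output list has its median at 0.42, and the medians of the other lists lie between 0.017 and 0.12. The grey band is a spread of single genes and no yardstick for a median. The lists were written with earlier results of these data known.

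The genomic surroundings of Erbb2 were also described. The mouse Srcin1 gene lies 837 kb away on the same chromosome, beyond the window used, and p140Cap was expressed from a retrovirus. Of the 24 other genes tested within 500 kb of Erbb2, 13 were higher and 8 were lower in p140Cap cells, where 35.2% of all genes tested were higher and 35.9% lower. Their log2 fold changes ran from -1.39 (Cdc6) to 1.19 (Fbxl20). Of the nearest genes, Pgap3 (0.68), Mien1 (0.59) and Grb7 (0.63) rose, and Stard3 (-0.023) was not called. Csf3, 262 kb away, had a log2 fold change of -1.05, while those of Thra (1.147) and Nr1d1 (0.98) in the same window were positive. Around Areg and Btc, 5 other genes were tested within 500 kb, and 3 of them were called, against 71.1% of all genes tested. These 3, Rassf6 (0.84), Cxcl1 (1.24) and Parm1 (0.65), were higher. Areg was the one gene called lower in this window. These neighbours were chosen by distance after the first results were known.

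**Figure D5:**
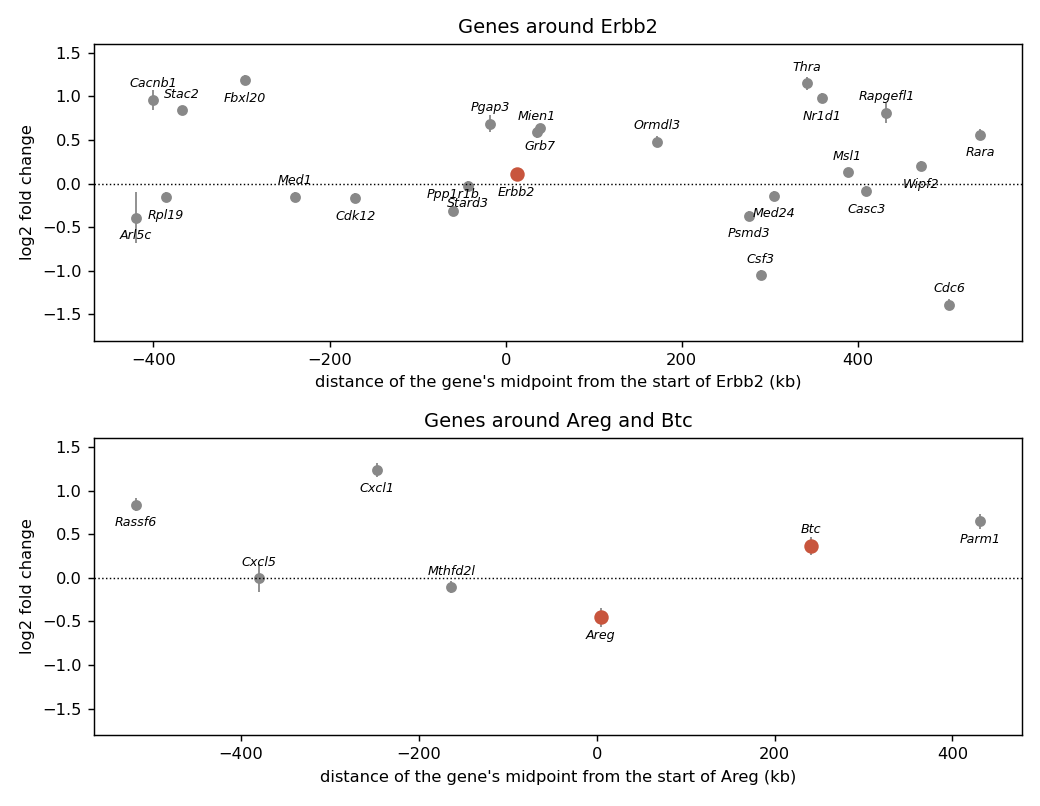
Log2 fold change (± SE) of p140Cap over mock cells for tested genes within 500 kb of Erbb2 (top) and of the stretch from Areg to Btc (bottom), against distance in kb, with members in red. Erbb2 lies at 0.10 among neighbours that moved both ways, and Areg (-0.45) and Btc (0.36) lie on opposite sides of 0.

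Likeness of pattern was measured as the root mean square difference of log2 CPM values, each gene centred on its mean over the 6 libraries, among 10770 genes. Genes closest to Erbb2 were Gak (0.0143), Abl1 (0.0145) and Zfp532 (0.0173), and those closest to Nrg1 were Smndc1 (0.0208), Kif18a (0.0216) and Hspa13 (0.0275). With 2 groups of libraries, such a measure reflects mainly the size of the group difference.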

How the data were processed

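The data are RNA-Seq of TuBo cells, 3 mock and 3 p140Cap libraries. Libraries were made with a stranded kit and sequenced on an Illumina NextSeq, and the labels state poly(A) selection. The authors deposited counts, whole numbers of reads per gene, with replicates kept apart and no normalization. Processing in docker4seq is stated in the paper, and the submitters' processing notes name STAR 2.5, RSEM and mm10, with no role given. If RSEM did the counting, values are rounded estimates in which shared reads are divided between genes. The paper names GRCm39, and no annotation release or counting setting is given in the sources used here.

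Counts were tested in R 4.3.3 with edgeR 4.0.16: TMM factors, filterByExpr by group, the quasi-likelihood test with condition as the sole term, and Benjamini-Hochberg adjustment over 11800 genes with a threshold of 0.05. SE was taken as the size of the log2 fold change over the root of the F statistic, and 95% intervals use the t quantile of that test. CPM was scaled by the TMM-adjusted library size. RPKM was computed here from exon lengths of GENCODE vM39, matched by Ensembl ID. Positions and start regions are RefSeq's for GRCm38.p6 (mm10). Overlapping genes and strands are from GENCODE vM39. The depth range, 13770385 to 75506562 reads, makes 1 read worth 0.013 to 0.073 CPM. The mean chi-square of 2 libraries of a group was between 1.75 and 10.7, where sampling noise gives about 1, so none is a copy of another. The scripts were tested on simulated counts.

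Members and lists were chosen with earlier results of these data known. The rule named all members, Srcin1, all other ligand genes, from each list the called genes that changed most, at most 4 (mean log2 CPM of at least 1), and the 3 genes most like Erbb2 and most like the called member with the largest change. Other list genes given with values were named after their values were seen. Alternatives were DESeq2 1.42.0, RLE factors, limma-voom (limma 3.58.1), all genes kept, a minimum of 10 reads per library, each library left out in turn, a replicate block, and thinning all libraries to the smallest total. The canonical transcript length was added after seeing the data. Protein sequences were not used here, and some list genes are not reported here.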

Additional observations from a re-analysis of the deposited data

How the results depend on the processing

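Under 13 alternatives, 101 of 104 member values kept their direction and their side of the threshold. The other 3 were those of Tgfa, with mock replicate 1, p140Cap replicate 1 or p140Cap replicate 3 left out. Over all alternatives the log2 fold change lay between 0.23 and 0.29 for Erbb3, 0.34 and 0.39 for Hbegf, 0.32 and 0.53 for Btc, -0.49 and -0.42 for Areg, -0.52 and -0.43 for Nrg1, and -0.16 and -0.11 for Tgfa, and each of the first 5 was called every time. Erbb2 (0.052 to 0.13) and Egfr (0.080 to 0.21) were called under none. All 156 counts of genes called stayed within 1.5 times the main count. Labels give both groups replicate numbers, and nothing says whether these pair the samples. Same-numbered libraries did not deviate together (correlations -0.0299, -0.106 and -0.0573). With 3 libraries in a group, this check cannot exclude a pairing by culture or run. With the replicate number as a block, 6 members were again called, with adjusted p = 0.0462 for Tgfa (edgeR). Over all role lists and the list of genes next to Erbb2 together, 61 genes were called with the block and 67 without it, where 71.1% of all genes tested were called. An exact permutation test of 3 against 3 libraries cannot give a p below 0.1. Every p140Cap library is smaller than every mock library, which limits the reading of genes with few or no reads (Epgn, Ereg, Erbb4 and Nrg3). The order of Nrg1 and Areg, and that of Hbegf and Btc, by size of change turned under some alternatives: Areg was at -0.45 and Nrg1 at -0.43 without mock replicate 2, and Btc at 0.53 and Hbegf at 0.34 with thinned libraries. With all libraries thinned to the smallest total, 6 members were called as well.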
